A study of Arabidopsis thaliana with 10 samples.

Results

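Complemented lines 5 and 6 are transgenic *Arabidopsis thaliana* plants in which the *oxt6* mutant carries a copy of the AtCPSF30 gene, and they were chosen by the line named in the sample labels, 2 arrays each and so 4 of the 10 arrays of the study. The other 6 arrays hold 3 wild-type samples and 3 *oxt6* samples. All plants were labelled as of the Columbia background, were grown in soil for 30 days with 8 hours of light and 16 hours of dark, received no treatment, and gave RNA from the leaves of 10 to 15 plants per sample. The *oxt6* mutant has a T-DNA in the first exon of AT1G30460 (chromosome 1, bases 10770813 to 10775428 of TAIR10.1), and both complemented lines keep that insertion. The transgene is a genomic fragment with the gene's own upstream region that ends after the stop codon of the smaller of its mRNAs, so that only the smaller protein, AtCPSF30, is put back.

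AtCPSF30 is the plant counterpart of the zinc finger subunit of CPSF, the complex that recognises the signal near the end of a transcript, cuts it there and hands it to poly(A) polymerase. The subunit binds RNA, and in plants it is known for its part in choosing among alternative poly(A) sites. A transgene put in by *Agrobacterium* lands at a site of its own in each line, so that plants of different lines with the same construct can express it to different levels.

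The fragment both lines carry was amplified with a pair of primers in the OXT6 gene, shown here because they mark the ends of the only construct that sets the lines apart from *oxt6*. The capitals mark the added cloning site (BamHI in the first, PstI in the second) and the lower case the stretch designed on the plant gene.
OXT6-1: GGATCCattaggccattgagcacagcact
OXT6-2: CTGCAGacaacttcaagcgcaatctggtaa

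The values are linear probe set intensities that go no lower than 16. Each had 1 added and was put on a log2 scale, and every log2 difference given here is on that scale, which understates changes of dim probe sets. The median intensity per array ran from 40.9 to 60.5. On each array the controls for actin, GAPDH and ubiquitin give a measure of RNA quality, the mean log2 excess of the 3′ over the 5′ part of these transcripts, and it was 0.081 and 0.10 in line 5, −0.053 and 0.027 in line 6, 2.0 to 2.37 in the wild-type and 1.09 to 2.88 in *oxt6*. This 3′/5′ signal moves with the difference between complemented and other plants, where its part was not tested, and its values in lines 5 and 6, though close, did not overlap. The probe set of AT1G30460 recognises only the larger mRNA, which the transgene does not hold, and so checks neither line. It read 16.0 and 18.7 in line 5, 16.0 and 16.0 in line 6, 38.7 to 71.2 in the wild-type and 27.1 to 54.7 in *oxt6*, and was too dim to be compared. Of the other 3 cleavage and polyadenylation factor genes compared, none passed between the lines: FY, a WD-repeat subunit, differed by a log2 of −0.34, and the poly(A)-binding proteins AT5G65260 and AT5G10350 by −0.59 (adjusted p = 0.0775) and −0.09.

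To find where each line lies, the 10 arrays were compared over the 12453 brightest probe sets. Lines 5 and 6 were closer to each other than to either reference. The median absolute log2 difference between arrays was 0.168 within line 5, 0.108 within line 6 and 0.227 to 0.277 between the lines, whereas it was 0.749 to 0.856 between line 5 and wild-type arrays and 0.916 to 0.984 between line 6 and wild-type arrays. It was 0.405 to 0.548 between the wild-type and *oxt6*. The first principal component, 74.5% of the variance, placed line 6 at 91.8 and 93.9, line 5 at 66.4 and 65.2 and the other 6 arrays between −67.9 and −28.8. The second, 14.2% of the variance, set the wild-type (−40.8 to −34.4) apart from *oxt6* (30.0 to 42.1), with the 4 line arrays between −1.12 and 1.44.

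**Figure D1:**
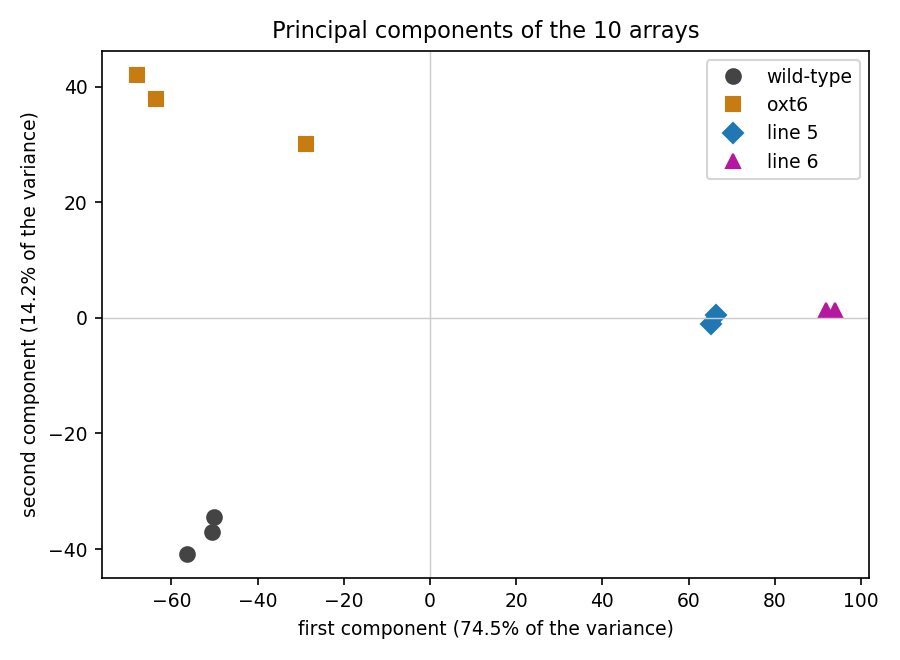
First (horizontal) against second (vertical) principal component of the log2 intensities of 12453 probe sets, 1 point per array, coloured by group. The line 5 arrays, at 66.4 and 65.2 on the first component, lie between the line 6 arrays, at 91.8 and 93.9, and the wild-type and *oxt6* arrays.

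Line 5 was the nearer of the lines to both references. Against the mean of the wild-type the median absolute log2 difference was 0.808 and 0.773 for the line 5 arrays and 0.935 and 0.947 for the line 6 arrays, and against the mean of *oxt6* it was 0.745 and 0.711 for line 5 and 0.880 and 0.883 for line 6. The arrays of the lines did not overlap in either measure, but an exact permutation test of 2 against 2 arrays gave p = 0.333 for each (two-sided), the smallest it can give. In limma, 8067 probe sets (64.8%) were called between line 5 and the wild-type and 7647 (61.4%) between line 5 and *oxt6*. Between line 6 and these references 8759 (70.3%) and 8470 (68%) were called. These 4 comparisons share arrays, and the difference between the counts was not tested.

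Along the direction from wild-type to *oxt6* the arrays of the lines overlapped. Of the 3997 probe sets (32.1%) called between *oxt6* and the wild-type, 1474 differed by 2-fold or more, 954 (7.66%) higher and 520 (4.18%) lower in *oxt6*. Each of the 1474 was placed on a scale with the wild-type mean at 0 and the *oxt6* mean at 1. The median position was 0.375 and 0.391 for the line 5 arrays and 0.384 and 0.370 for the line 6 arrays (exact permutation test, two-sided p = 0.667). Probe sets higher in *oxt6* lay at a mean position of 0.253 in line 5 and 0.218 in line 6, nearer to the wild-type, and the arrays overlapped (exact permutation p = 0.667). Probe sets lower in *oxt6* lay at 0.684 and 0.621 in line 5 and at 0.739 and 0.787 in line 6, nearer to *oxt6* and without overlap (exact permutation p = 0.333, again the smallest possible). Of the 1474, line 5 was beyond the wild-type at 480 and beyond *oxt6* at 348, and line 6 at 510 and 390. Without *oxt6* replicate 1 the mean positions of lines 5 and 6 were 0.110 and 0.0985, and without *oxt6* replicate 2 they were 0.511 and 0.505.

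The lines themselves differed at 531 of the 12453 probe sets (4.26%) at an adjusted p under 0.05 in limma, of which 399 (3.2%) were higher in line 5 and 132 (1.06%) higher in line 6. Of these, 249 (2%) were higher in line 5 by 2-fold or more and 68 (0.546%) higher in line 6 by 2-fold or more. The line arrays did not overlap at any of the 531, as at 62.2% of all probe sets compared. The median difference over all 12453 was −0.080. A gene is named here for 308 of the 531, 255 higher in line 5 and 53 higher in line 6, and in whole leaves fewer cells of a type and less RNA per cell cannot be told apart. P-values measure only the spread between these samples. The count was 287 without line 5 replicate 1, 222 without line 5 replicate 2, 246 and 231 without line 6 replicates 1 and 2, and 1121 without *oxt6* replicate 1, and 2933 with only the line arrays in the fit, where 1209 were higher and 1724 lower in line 5 (41.2% higher in place of 75.1%). Array weights gave 1241 higher and 1361 lower, and the t-test of the methods (p under 0.01, not adjusted) gave 350 higher and 538 lower, so the excess of probe sets higher in line 5 turned in these 3 fits. Of the 69 named genes that passed between the lines, 52 also passed under every other limma setting that held their probe set. Fewer did so once fits with 1 array left out were included. A gene missing from a fit, such as one too dim for that of the brightest probe sets, was not counted as failing there.

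The largest difference was at a probe set with no gene named here, which read 57.1 and 47.9 in line 5, 713 and 579 in line 6 and 76.9 to 110 in the wild-type (log2 difference −3.59). Among named genes higher in line 5, the 3 described next were far below the wild-type level in line 6 and nearer to it in line 5. AT4G27654 (chromosome 4, bases 13811612 to 13812126) read 1317 and 1598 in line 5, 168 and 154 in line 6, 1538, 1579 and 1588 in the wild-type and 1545, 848 and 775 in *oxt6*. The line 6 arrays lay far below all others. The gene was 8.96-fold higher in line 5 than in line 6 (log2 difference 3.16, SE 0.27, adjusted p = 5.3e-05), lay at −0.11 against the wild-type in line 5 (adjusted p = 0.704) and fell by 3.28 in line 6. AT5G17350 read 295 and 380 in line 5, 48.8 and 35.6 in line 6, 437, 465 and 628 in the wild-type and 599, 438 and 384 in *oxt6*, and was 7.86-fold higher in line 5. AT1G15010 read 1674 and 2207 in line 5, 298 and 284 in line 6, 2856, 3052 and 3171 in the wild-type and 1999, 2244 and 2130 in *oxt6*, and was 6.59-fold higher in line 5 (log2 difference 2.72, SE 0.16, adjusted p = 8.42e-06). For both, line 6 lay far below all the other arrays.

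Genes known to respond early to touch and wounding had the highest share of changes of the lists with at least 5 genes compared. Of the 5 touch, wound and early stress genes compared, 3 (60%) were higher in line 5 and none higher in line 6. Over all probe sets 3.2% were higher in line 5. The median difference of the 5 was 1.36. CML38, ERF6, ERF5 and STZ span 1000 to 1500 bases from start to end of the gene. Of all nuclear genes of that span, 7.95% were higher in line 5. TCH2 spans 2106 bases, and 0.864% of genes from 2000 to 3000 bases were higher in line 5. The part of span in this list was not tested. CML38, a calmodulin-like protein induced by wounding, read 381 and 346 in line 5, 79.8 and 70.6 in line 6, 384, 383 and 212 in the wild-type and 748, 402 and 386 in *oxt6*. Line 5 thus lay within the wild-type range and line 6 below every other array (4.79-fold, log2 difference 2.26, SE 0.34, adjusted p = 0.00208). TCH2, a touch-induced calmodulin-like protein, read 487 and 472 in line 5, 186 and 187 in line 6, 683, 664 and 625 in the wild-type and 2439, 2081 and 1744 in *oxt6*, so that both lines lay below both references, line 6 the further (log2 difference 1.36, adjusted p = 0.00091). ERF6, an ethylene response factor, read 268 and 261 in line 5, 116 and 90.1 in line 6, 174, 139 and 201 in the wild-type and 215, 124 and 121 in *oxt6*. It was above the wild-type in line 5 (log2 0.64, adjusted p = 0.0442) and below it in line 6 (−0.73, adjusted p = 0.0233), and 2.58-fold higher in line 5 (adjusted p = 0.0142). ERF5 did not pass, at 0.85 (adjusted p = 0.132), nor did the zinc finger factor STZ, also at 0.85 (adjusted p = 0.12). With 1 of the 4 line arrays left out, which leaves a line with 1 array assumed to vary like the other groups, CML38 and TCH2 passed each time and the other 3 did not.

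**Figure D2:**
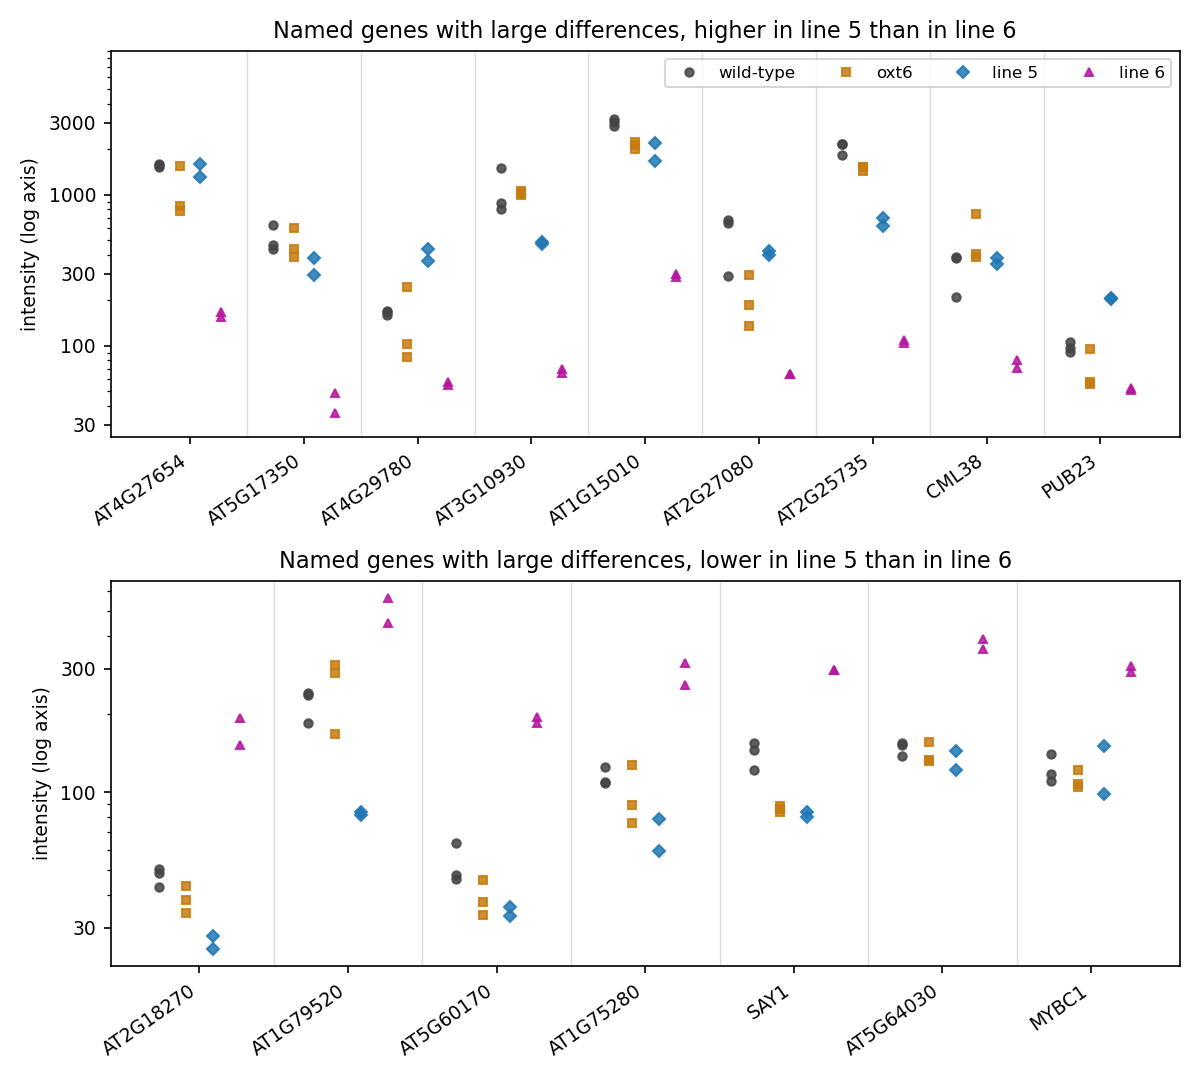
Intensity of selected genes on each array (vertical, log axis), with a point per array and a colour and symbol per group, for 9 named genes higher in line 5 (top) and 7 lower in line 5 (bottom). CML38 sits at 381 and 346 in line 5, within the wild-type range, and at 79.8 and 70.6 in line 6, below every other array.

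Some other genes of signalling and defense were higher in line 5. PUB23, a U-box ubiquitin ligase that dampens immune responses, read 205 and 208 in line 5, 52.1 and 51.0 in line 6, 106, 90.9 and 96.4 in the wild-type and 95.1, 57.8 and 55.4 in *oxt6*. It was above the wild-type in line 5 (log2 1.07) and below it in line 6 (−0.91), a difference of 1.98 (SE 0.24, adjusted p = 0.00056). AT4G29780 lay on both sides of the wild-type as well, with 364 and 439 in line 5, 57.7 and 54.5 in line 6 and 159 to 169 in the wild-type (log2 difference 2.81, adjusted p = 0.000863). AT1G66090, a TIR-domain protein of the disease resistance type, read 144 and 180 in line 5 and 37.3 and 30.4 in line 6. WRKY53, a transcription factor of leaf senescence, read 166 and 161 in line 5, 64.3 and 47.6 in line 6 and 204 to 492 in the wild-type, below the wild-type in both lines (adjusted p = 0.0283 between them, not passed with either other scaling). Of the 66 defense-related genes that the study listed and that were compared, 3 (4.55%) were higher in line 5 and 1 (1.52%) in line 6, near the 3.2% and 1.06% of all probe sets, with a median difference of −0.0023, or 0.077 with each array scaled to its median.

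OPR3, the 12-oxophytodienoate reductase of jasmonate synthesis, was high in both lines. It read 3728 and 3439 in line 5, 1765 and 1793 in line 6, 661, 582 and 703 in the wild-type and 112, 148 and 108 in *oxt6*. The 4 groups did not overlap, and line 5 exceeded line 6 by a log2 of 1.01 (SE 0.19, adjusted p = 0.00864), with differences of 2.47 and 1.46 from the wild-type. The other 2 jasmonate genes compared did not pass. BZIP60, a transcription factor of the unfolded protein response, read 664 and 580 in line 5, 411 and 372 in line 6 and 1519 to 1846 in the wild-type, lower in both lines than in either reference (adjusted p = 0.0456 between the lines, not passed with either other scaling). The other 6 endoplasmic reticulum chaperone genes compared did not pass.

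Fewer probe sets were higher in line 6 in the fit over all arrays, and at the 5 genes given here line 5 lay below the wild-type while line 6 lay above it. AT2G18270 read 24.9 and 27.9 in line 5, 194 and 152 in line 6, 49.0, 43.1 and 50.5 in the wild-type and 34.1, 43.7 and 38.3 in *oxt6*, and was 6.31-fold higher in line 6 (log2 difference −2.66, SE 0.22, adjusted p = 5.07e-05). AT1G79520, a cation efflux family protein, read 83.7 and 81.6 in line 5, 561 and 451 in line 6, 238, 185 and 241 in the wild-type and 169, 311 and 288 in *oxt6*. For both genes line 5 was lowest and line 6 highest of the 4 groups. AT5G60170, a protein with an RNA recognition motif, read 33.4 and 36.0 in line 5 and 195 and 185 in line 6 against 46.5 to 63.7 in the wild-type. SAY1, a UBX-domain protein, read 80.6 and 83.8 in line 5, 296 and 296 in line 6 and 122 to 155 in the wild-type, while its *oxt6* arrays, at 84.2 to 88.2, were near those of line 5 (log2 difference −1.84, adjusted p = 8.71e-05). AT1G75280, of the isoflavone reductase family, read 59.6 and 78.8 in line 5, 316 and 259 in line 6 and 108 to 125 in the wild-type. For each of these last 3 genes, line 5 lay below and line 6 above every wild-type array.

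A pair of genes known to follow salicylate were higher in line 6 but below the wild-type in both lines. PR5, a thaumatin-like pathogenesis-related protein, read 70.3 and 66.6 in line 5, 141 and 149 in line 6, 638, 848 and 588 in the wild-type and 51.0, 58.3 and 44.0 in *oxt6*. Line 6 was thus nearer to the wild-type than line 5 (log2 difference −1.07, SE 0.21, adjusted p = 0.0123), with both lines between the mutant and the wild-type, but did not pass with each array scaled to its median. AT5G03350, a legume lectin family protein, read 224 and 202 in line 5, 557 and 454 in line 6, 1216 to 2335 in the wild-type and 166 to 249 in *oxt6*. Its log2 difference between the lines was −1.24 (adjusted p = 0.0325), and it did not pass in every other limma fit. The other 7 salicylate and pathogen response genes compared did not pass between the lines. NAS3, a nicotianamine synthase of iron homeostasis, read 52.7 and 51.9 in line 5 and 90.1 and 96.5 in line 6 (adjusted p = 0.0308, not passed with either other scaling), and the 3 other iron genes compared did not pass.

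Where the lines differed, line 6 was often the further of them from the wild-type. The wild-type mean was above both lines at 359 of the 399 probe sets higher in line 5 (90.0%), between them at 34 and below both at 6, and the median differences from the wild-type were −1.19 in line 5 and −2.40 in line 6. Over all probe sets compared it was above both lines at 44.9%. Of the 132 higher in line 6, the wild-type mean was below both lines at 76 (57.6%), between them at 48 (36.4%) and above both at 8. Over all probe sets it was below both at 47.9% and between them at 7.19%. The median differences of the 132 from the wild-type were 0.30 in line 5 and 1.49 in line 6. Against *oxt6* the order was the same, with the mutant mean above both lines at 333 of the 399 (83.5%) and below both at 92 of the 132 (69.7%). Over all probe sets the mutant mean was above both lines at 45.5% and below both at 47.2%. The probe sets were chosen by the difference between the lines, so these places are a description.

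**Figure D3:**
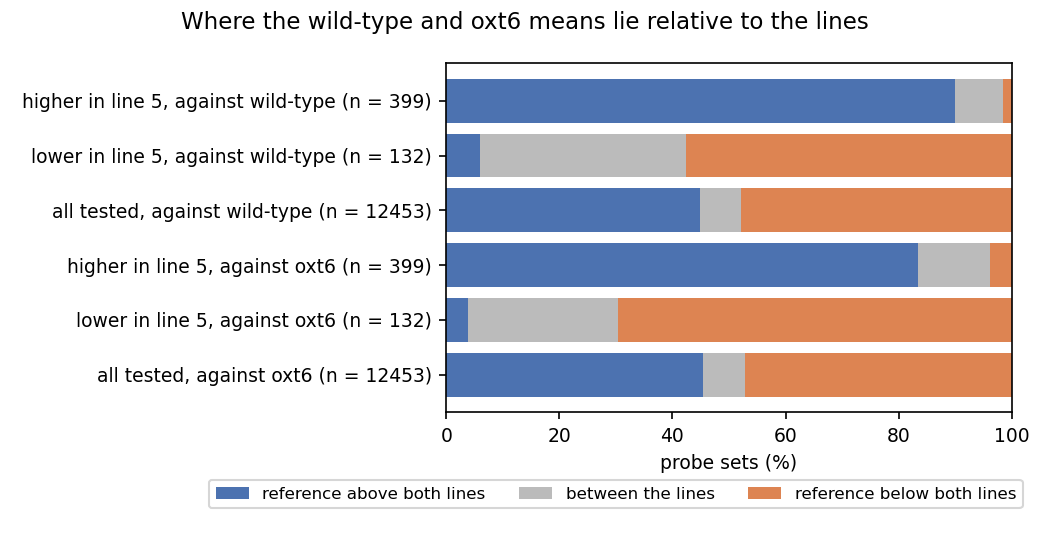
Percentage of probe sets (horizontal) at which the wild-type or *oxt6* mean lay above both lines, between them or below both, for those higher in line 5, lower in line 5 and all compared (bars). The wild-type lay above both lines at 90.0% of the 399 probe sets higher in line 5 and at 44.9% of all.

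A line was called apart where it differed from each of the 3 other groups in the same direction by 2-fold or more at an adjusted p under 0.05, with its arrays beyond all others. Line 6 was below the 3 others at 215 probe sets (1.73%) and above them at 45 (0.361%). Line 5 was above the others at 9 (0.0723%) and below them at 2 (0.0161%). Line 6 was therefore the line apart at 260 of the 317 probe sets that differed by 2-fold or more between the lines and line 5 at 11, with both apart at 2 and neither at 48. At 26 probe sets the lines were called on opposite sides of the wild-type, 10 with line 5 above and 16 with line 6 above, and at 23 on opposite sides of *oxt6*. PUB23, AT4G29780, ERF6, AT2G18270, AT1G79520, AT5G60170, SAY1 and AT1G75280 are among the 26.

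Among gene groups, the chloroplast-encoded transcripts had the largest share of changes of the lists with more than 10 genes compared. Of 65 compared, 11 (16.9%) were higher in line 5 and 1 (1.54%) higher in line 6, against 3.2% and 1.06% of all probe sets, and the median difference of the 65 was 0.11 against −0.080. The 11 were petL and petN of the cytochrome b6f complex, psaC, psaI and psaJ of photosystem I, psbF, psbJ and psbL of photosystem II, ndhG of the NADH dehydrogenase-like complex, ccsA of cytochrome c maturation and the ribosomal protein gene rps18. The transcript of petL read 2008 and 1669 in line 5, 303 and 378 in line 6, 3679, 2857 and 4169 in the wild-type and 2382, 2868 and 2937 in *oxt6* (log2 difference 2.43, SE 0.20, adjusted p = 5.07e-05). Both lines lay below all wild-type arrays, line 6 the lower. That of petN read 286 and 225 in line 5, 46.9 and 61.3 in line 6 and 696 to 4029 in the wild-type (adjusted p = 0.0461). The transcript higher in line 6 was atpA, the alpha subunit of the ATP synthase, with 1237 and 876 in line 5, 2332 and 3519 in line 6, 170 to 262 in the wild-type and 181 to 395 in *oxt6* (log2 difference −1.46, adjusted p = 0.0373). With each array scaled to its median 6 of the 65 were higher in line 5 and none higher in line 6, and without 1 of the 4 line arrays 3 to 5 were higher and none lower.

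The chloroplast genes that were higher in line 5 are mostly short by the span of the annotated gene. Transcript length was not measured. The longest was ccsA, at 987 bases, and some short genes did not pass, such as petG (114 bases, log2 difference 0.52) and rpl33 (201 bases, −0.28). The median span of those higher in line 5 was 123 bases, against 678 for the 53 that did not pass. Of the 23 that span under 300 bases, 8 were higher in line 5, and their median differences from the wild-type were −0.84 in line 5 and −1.86 in line 6. Of the 20 from 300 to under 1000 bases, 3 were higher in line 5, and of the 22 of 1000 bases or more none was, where the median differences from the wild-type were −0.15 and −0.16. Of 13 probe sets for 8 mitochondria-encoded genes, that of nad4 of complex I was higher in line 5, with 1113 and 1253 against 554 and 646.

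**Figure D4:**
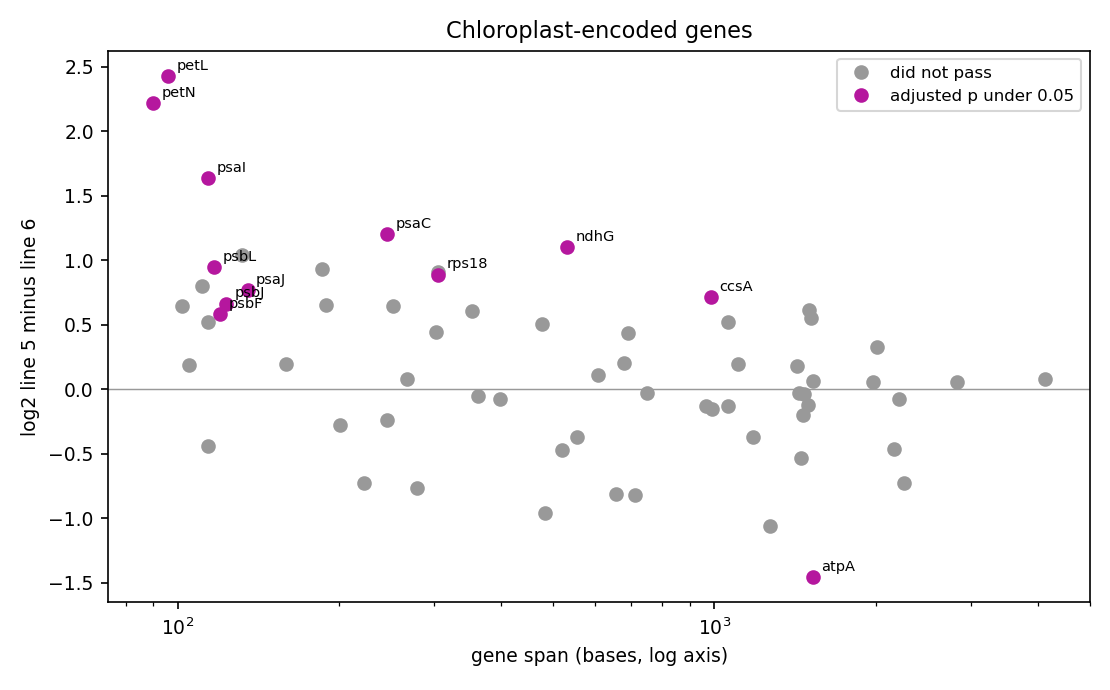
Log2 difference of line 5 minus line 6 (vertical) against gene span in bases (horizontal, log axis) for the 65 chloroplast-encoded genes compared, with those that passed coloured and named. Most of the genes higher in line 5, such as petL at 2.43, lie at the short end, and atpA at −1.46 among the long genes.

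Span went with the difference among nuclear genes as well. The control probe set for 5S rRNA, itself a short RNA, read 353 and 421 in line 5, 163 and 175 in line 6, 224 to 598 in the wild-type and 827 to 983 in *oxt6*, again higher in line 5 than in line 6 without overlap, and its part in the pattern was not tested. The 238 nuclear genes higher in line 5 had a median span of 1210.5 bases in the RefSeq annotation of TAIR10.1, the 51 higher in line 6 one of 2290, and the 7173 compared one of 2192. The share higher in line 5 was 13% of genes under 750 bases, 16.2% from there to 1000, 7.95% from 1000 to 1500 and 2.48% from 1500 to 2000, and 0.654 to 0.864% above that. The median difference from the wild-type for genes under 750 bases was −1.27 in line 5 and −1.61 in line 6, while *oxt6* minus wild-type was −0.18. From 2000 to 3000 bases the medians were 0.20 in line 5 and 0.33 in line 6. With a curve for span in the comparison of the lines, chosen after seeing the data, 244 genes passed (189 higher in line 5, 55 higher in line 6) in place of 292 (242 and 50) without the curve, both with p-values adjusted over the nuclear genes alone, and 217 passed in both. With a term for the 3′/5′ signal in the fit, also added after seeing the data, 1083 probe sets passed between the lines. Of these, 692 were higher and 391 lower in line 5, and all 531 were among them. The term is set by the spread within groups, where *oxt6* ran from 1.09 to 2.88 and line arrays from −0.053 to 0.10. Leaving out *oxt6* replicate 1 gave 1121, with 699 higher and 422 lower in line 5. That fit therefore cannot measure the part of the 3′/5′ signal between the lines, which was not tested.

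**Figure D5:**
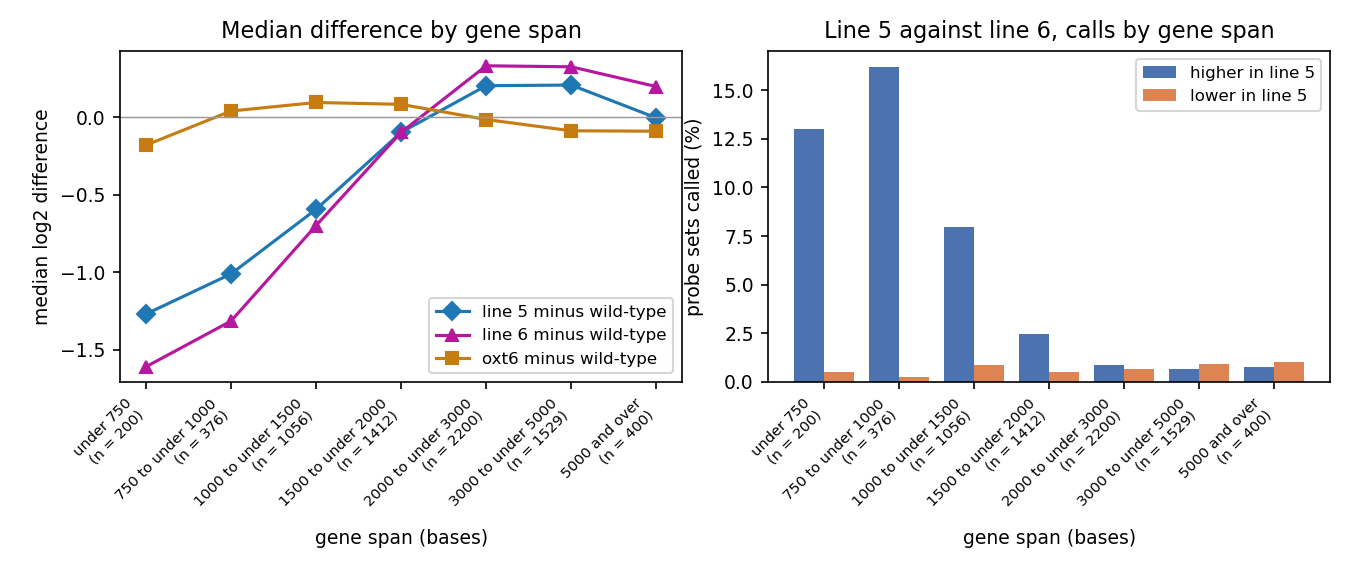
Median log2 difference of line 5, line 6 and *oxt6* from the wild-type (left) and the percentage of nuclear genes called higher or lower in line 5 than in line 6 (right), by gene span in bases. The share higher in line 5 is 13% under 750 bases and 16.2% from 750 to 1000 bases, and is under 1% from 2000 bases on.

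Of the lists that the study drew up on these arrays, which are no independent evidence of direction, the ribosomal protein genes gave 20 of 256 probe sets (7.81%) higher in line 5, against 3.2% of all compared, and none higher in line 6, while the median of the 256 was −0.038, or 0.042 with each array scaled to its median. Without 1 of the line arrays 10 to 15 were higher in line 5. AT5G27700, a protein of the small ribosomal subunit, read 6535 and 7182 in line 5, 3056 and 2776 in line 6 and 10097 to 10858 in the wild-type. AT5G59850, also of the small subunit, read 1032 and 1234 in line 5 and 464 and 479 in line 6 against 2827 to 3281 in the wild-type. Both lines lay below every wild-type array, line 6 the lower. AT5G27700 and AT5G59850 each span 1000 to 1500 bases, where 7.95% of all nuclear genes were higher in line 5. The list is the study's own. The annotation used here names a member of the 20 as RLK902, not as a ribosomal protein, and gives some others no gene name.

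Of the 100 auxin-related genes compared, 6 (6%) were higher in line 5, against 3.2% of all probe sets, and none higher in line 6, with a median of 0.046. All 6 are SAUR genes, which auxin induces early and which promote cell expansion: SAUR15, SAUR23, SAUR68, AT4G34760, AT4G38840 and AT4G38860. SAUR15, SAUR68, AT4G34760 and AT4G38840 each span under 1000 bases, and AT4G38860 from 1000 to 1500. Of all nuclear genes, 13% under 750 bases, 16.2% from 750 to 1000 and 7.95% from 1000 to 1500 were higher in line 5. The part of span in this list was not tested. AT4G34760 read 1771 and 1793 in line 5, 610 and 552 in line 6, 3469, 3508 and 3137 in the wild-type and 4804, 5181 and 4483 in *oxt6*. AT4G38860 read 660 and 731 in line 5, 235 and 211 in line 6, 1923 to 2698 in the wild-type and 3426 to 4003 in *oxt6* (log2 difference 1.64, SE 0.19, adjusted p = 0.000336). Both genes were highest in *oxt6*, lower in the wild-type, lower again in line 5 and lowest in line 6, with no overlap. SAUR15, which lies beside AT4G38840, kept the same order, with 98.4 and 124 in line 5, 55.2 and 47.7 in line 6, 295 to 417 in the wild-type and 944 to 1312 in *oxt6*.

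Of the 31 ethylene-related genes, 3 (9.68%) were higher in line 5, against 3.2% of all probe sets, and none higher in line 6. They were ERF6, also counted among the touch genes above, the repressor ERF4 and the jasmonate and ethylene integrator ORA59. Each spans 1000 to 1500 bases, where 7.95% of all nuclear genes were higher in line 5. The part of span in this list was not tested. The median of the 31 was 0.20, or −0.040 without line 5 replicate 2. ERF4 read 1454 and 1764 in line 5, 788 and 786 in line 6, 1813 to 2078 in the wild-type and 706 to 761 in *oxt6*, so that line 5 lay nearer to the wild-type and line 6 nearer to the mutant. ORA59 read 213 and 234 in line 5, 107 and 86.2 in line 6 and 477 to 585 in the wild-type. The study's list of genes tied to reactive oxygen, less its thioredoxins, glutaredoxins and glutathione-related genes, was taken as detoxifying. Of these 27, 3 (11.1%) were higher in line 6, against 1.06% of all probe sets, and none higher in line 5. The median was −0.32, against −0.080 for all probe sets. The 3 were CCS, the copper chaperone of superoxide dismutase, AT5G21100, an ascorbate oxidase, and AT3G52960, a peroxiredoxin. CCS read 395 and 416 in line 5, 745 and 794 in line 6, 126 to 196 in the wild-type and 66.3 to 91.5 in *oxt6*, above both references in both lines (adjusted p = 0.0413 between them). None of the 27 passed with each array scaled to its median, or without any 1 of the line arrays.

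Between 0 and 2 genes of each other list of the study were higher in line 5, 0 to 5.56% of the list where all probe sets gave 3.2%. They were 2 of 147 heat shock genes, 1 of 18 cold shock genes (RCI2B, a small membrane protein, 655 and 692 in line 5, 315 and 299 in line 6), 2 of 54 thioredoxins (TRXF1 of the chloroplast, 1429 and 1696 against 879.8 and 928, and TRX5), 1 of 22 glutaredoxins, 1 of 51 glutathione-related genes and none of 22 ubiquitin-conjugating enzymes. The heat shock and thioredoxin lists each had 1 higher in line 6. The glutaredoxin was AT5G18600, with 293 and 352 in line 5, 150 and 135 in line 6 and 1218 to 1292 in the wild-type. None of the 9 redox genes, among them thioredoxins and glutaredoxins, that the study singled out for *oxt6* passed between the lines, with log2 differences from −0.16 to 0.48 and adjusted p from 0.287 to 0.999. The study chose them on these arrays as higher in *oxt6* than in the complemented plants, so that all 9 were below *oxt6* in both lines describes that choice, by log2 1.16 to 2.56 in line 5 and 1.16 to 3.04 in line 6. ATTRX4, a cytosolic thioredoxin, read 156 and 189 in line 5 and 123 and 122 in line 6.

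Of the probe sets with 1 gene named, between 3.78 and 4.44% passed between the lines on each of chromosomes 1 to 5, against 18.5% on the plastid genome. Of 1759 pairs of adjacent genes compared, 4 had both members passing, all higher in line 5: AT1G22885 with AT1G22890, AT4G21105 with AT4G21110, AT4G27654 with AT4G27657, and AT4G38840 with SAUR15. Whether 4 is more than genes scattered at random would give was not tested. The only leaf marker compared read 6043 to 6067 in line 5 and 7673 to 8232 in line 6 against 1140 to 1569 in the wild-type and 631 to 3351 in *oxt6*, and did not pass between the lines. The root marker list, with 2 of its genes on the array, summed to 270 to 302 in line 5, 320 to 351 in line 6 and 119 to 186 in the wild-type, and its part in the differences was not tested. The flower marker (1) and guard cell markers (3) matched to probe sets were too dim to be compared, and no seed or vascular marker of the lists was matched to one.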

How the data were processed

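Leaf RNA of 10 samples (3 wild-type, 3 *oxt6*, 2 of line 5 and 2 of line 6) was hybridized to Affymetrix ATH1 arrays. The authors ran ArrayAssist's PLIER protocol on the scans, and the deposited values are linear intensities that go no lower than 16. No scans were used here, so their background correction and scaling were kept.

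The 64 control probe sets were left out, 1 was added to each value before taking log2, and the 12453 probe sets of highest mean were fitted in limma 3.58.1 (R 4.3.3) with a mean per group over all 10 arrays, a shared trended variance and Benjamini-Hochberg adjustment, with a threshold of 0.05. The fit was run on simulated data with the same spread in every group, which does not test it for arrays of unequal spread. The number of arrays limits the precision. No pair of arrays held the same values, so each counts once. No value columns were left unused. Of 22810 probe sets, 14018 have 1 gene named, 531 several and 8197 none here. Names came from the platform annotation, except 505 of the 14018, which came from the study's own supplement. Spans and coordinates came from RefSeq's TAIR10.1 table. Of 355 genes in the hand-made lists, 78 were matched on the array.

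The lines and lists were chosen with earlier results of these data known. Genes named were, by rule, the 15 largest differences each way among those that passed without overlap, the 6 largest where 1 line stood apart from the rest in each direction, up to 4 that passed in each list and the study's redox genes. The alternatives were 2 other scalings (array median, quantile), no filter, the 8000 brightest probe sets, an offset of 16, a fit of only the groups compared, no trend, array weights, a replicate block, a stricter adjusted p (0.01), each array left out in turn, and the methods' t-test. A covariate for the 3′/5′ signal and a curve for gene span were chosen after seeing the data. The replicate numbers were not taken as pairs. Plots used matplotlib 3.10.9 under Python 3.11.15.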

Additional observations from a re-analysis of the deposited data

Results flagged for a closer look

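At 26 probe sets the lines were called on opposite sides of the wild-type, each line against the same wild-type arrays, and the difference between the lines passed at each gene given here. In log2 of line 5 over line 6, those higher in line 5 with 1 gene named were AT4G29780 (2.81), PUB23 (1.98), AT4G24380 (1.40), ERF6 (1.37) and AT5G28630 (1.18). Those higher in line 6 with 1 gene named were AT2G18270 (−2.66), AT1G79520 (−2.59), AT5G60170 (−2.42), AT1G75280 (−2.05), SAY1 (−1.84), AT1G32260 (−1.31) and AT4G24610 (−1.23).

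Of the 64 control probe sets, left out of the comparisons between groups except as the source of the 3′/5′ signal, 14 read above every wild-type array on all 4 arrays of lines 5 and 6. They are probe sets for the 3′, middle or 5′ part of the actin, GAPDH and ubiquitin transcripts and 1 for the added *Bacillus* transcript dap. The other direction was not counted. Some added *E. coli* transcripts read below every wild-type and *oxt6* array on all 4 line arrays. BioC-3 read 213 to 325 in the lines, 699 to 933 in the wild-type and 459 to 857 in *oxt6*. BioB-5 read 84.8 to 129, 249 to 344 and 181 to 292 in the same order. CreX-3, of the added cre, overlapped *oxt6*, at 3534 to 5089, 5383 to 5662 and 4156 to 7144. Their part in the places of the lines was not tested.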

How the results depend on the processing

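The count of 531 probe sets between the lines was 2933 with only the groups compared in the fit, 2602 with array weights (1241 higher and 1361 lower in line 5), 1083 with a covariate for the 3′/5′ signal, an alternative chosen after seeing the data, and 285 at an adjusted p under 0.01. With a minimum of 2-fold it was 317. The methods' t-test gave 888 at an unadjusted p under 0.01 (350 higher, 538 lower) and 0 once adjusted by Benjamini-Hochberg, where limma gave 1797 at an unadjusted p under 0.05. All 531 were among those called with only the groups compared, with array weights and with the covariate. The covariate was fitted on the spread within groups, largest in *oxt6*, so it does not measure the signal's part between the lines. Under the 7 other settings it was within 1.5 times, and leaving out 1 array gave 222 to 1121. Leaving out 1 array gave 6295 to 8930 for line 5 against the wild-type, 7295 to 9451 for line 6 against it, 5906 to 8567 for line 5 against *oxt6*, 7064 to 9120 for line 6 against it and 180 to 290 probe sets with 1 line apart (269, or 498 with no minimum fold). The methods' t-test at its unadjusted threshold gave 4727 for line 5 against the wild-type, 2812 for line 5 against *oxt6* (3394 after adjustment) and 4150 for line 6 against *oxt6*. With a minimum of 2-fold these 3 counts were 4756, 4397 and 5493. The position of line 5 between wild-type and *oxt6* (0.383) was 0.423 with quantile scaling, 0.412 with no filter, 0.346 with the 8000 brightest probe sets and 0.332 with an offset of 16, and that of line 6 (0.377) was 0.436, 0.414, 0.318 and 0.309. Leaving out 1 array gave 0.110 to 0.511 for line 5 and 0.0985 to 0.505 for line 6. The mean array-to-array difference between the lines, 0.247, was 0.224 with median scaling, 0.209 with quantile scaling and 0.213 with an offset of 16. The cause of these shifts was not tested.

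With the replicate number as a block the counts were 541 between the lines, 7577 and 8380 for lines 5 and 6 against the wild-type, and 7116 and 8114 against *oxt6*. Deviations of same-numbered arrays of the lines had a correlation of −0.071, and nothing in the labels pairs them. Of the 69 named genes that passed, none changed direction. With median scaling 12 no longer passed, with quantile scaling 8, with the block 4, and without 1 of the line arrays 26 to 32. A pair of arrays per line limits every comparison of the lines.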
